A study of Mus musculus with 6 samples.

Results

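FTO and the proteins ALKBH1 to ALKBH8 make up the mammalian AlkB family, whose 9 mouse genes, Fto and Alkbh1 to Alkbh8, were followed here in cultured pre-adipocytes. The genes were chosen by name, by matching the Ensembl gene identifiers of the deposited tables to mouse symbols. All 9 were found among 37315 gene entries. AlkB enzymes use iron, oxygen and 2-oxoglutarate to oxidise their substrates, most often a methyl group on a base, which is then lost. The bacterial founder repairs alkylated DNA, and the mammalian members have spread to DNA, mRNA, tRNA and proteins. In fat cell precursors FTO is the best known of them, as an enzyme that removes methyl groups from adenosines in RNA and takes part in the formation of adipocytes.

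The RNA came from 3T3-L1 cells, a mouse embryo fibroblast line of pre-adipocytes, which had been transiently transfected. METTL3 control and METTL3 knockdown cells gave 2 libraries each, sequenced in single-read mode. FTO control and FTO knockdown cells gave 1 library each, sequenced in paired-end mode. METTL3 is the catalytic subunit that writes N6-methyladenosine (m6A), the mRNA mark that FTO and ALKBH5 can remove. Knockdown columns carry an "si" prefix in the file headers, and what the control cells received is not given in the sources used here. All groups are 1 cell line, and no label states that replicates were grown as separate cultures. The p-values therefore reflect only the spread between these libraries, which may be technical.

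The 6 libraries held 28348179 to 44580722 counted reads. Mitochondrial transcripts took 0.605% to 0.757% of reads in the METTL3 libraries and 4.14% and 3.90% in the FTO control and knockdown libraries. All 8 fibroblast and pre-adipocyte markers reached 1 CPM (read counts per fixed number of reads) in every library. For all markers CPM was taken per library total, and for the levels of genes below it was scaled by TMM library factors. Their summed level was 21252 to 22823 CPM in the METTL3 libraries, 11790 in the FTO control and 7931 in its knockdown. Summed adipocyte markers ran from 15.8 to 22.3 CPM in the METTL3 libraries and were 46.5 in the FTO control and 42.9 in its knockdown. Of the 6 adipocyte markers, 1 reached 1 CPM in every library. Summed macrophage markers ran from 5.96 to 9.82 CPM over all libraries, and endothelial markers from 0.694 to 1.53. Epithelial markers ran from 0.0341 to 0.208 and skeletal muscle markers from 3.56 to 16.3. Epcam and Krt18 of the epithelial markers and Myod1, the defining muscle regulator, were at 0 in all 6. Of the 3 muscle markers, 1 reached 1 CPM in every library.

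What unites the family is an iron site whose first ligands are a histidine and, after 1 intervening residue, an aspartate. The coding stretches around this triplet are shown because they are the sequence feature that the 9 genes share. Each reads 5′ to 3′ along the longest open frame of the named transcript in GENCODE mouse release 21, with the 3 codons from histidine to aspartate in capitals.

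Fto, codons 224 to 234 of Fto-201: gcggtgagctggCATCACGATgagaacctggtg
Alkbh5, codons 201 to 211 of Alkbh5-201: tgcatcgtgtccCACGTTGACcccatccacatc
Alkbh1, codons 227 to 237 of Alkbh1-209: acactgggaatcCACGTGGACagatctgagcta
Alkbh2, codons 145 to 155 of Alkbh2-201: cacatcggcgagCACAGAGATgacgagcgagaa
Alkbh3, codons 188 to 198 of Alkbh3-202: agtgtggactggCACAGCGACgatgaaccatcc
Alkbh4, codons 163 to 173 of Alkbh4-201: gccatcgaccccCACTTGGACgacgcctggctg
Alkbh6, codons 110 to 120 of Alkbh6-201: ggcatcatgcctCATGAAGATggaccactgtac
Alkbh7, codons 117 to 127 of Alkbh7-201: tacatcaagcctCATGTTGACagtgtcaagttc
Alkbh8, codons 234 to 244 of Alkbh8-201: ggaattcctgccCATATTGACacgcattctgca

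A histidine and an aspartate codon in this spacing stand in all 9 open frames. The middle codon varies, with GTT in both Alkbh5 and Alkbh7, and the flanks differ from gene to gene. For Alkbh8 the stretch is the only such triplet in its frame. The further histidine codon at the usual distance downstream, found for the other 8, was not found there. The search by spacing alone thus does not settle the place of the Alkbh8 triplet in the iron site. The frames run from 221 codons in Alkbh7 to 664 in Alkbh8, the member whose protein also carries a tRNA methyltransferase domain.

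The genes are scattered over the genome, given here on GRCm38. On the plus strand lie Fto (chromosome 8, 91313525 to 91668439), Alkbh4 (chromosome 5, 136136146 to 136141615), Alkbh5 (chromosome 11, 60536381 to 60558512), Alkbh6 (chromosome 7, 30308717 to 30314304), Alkbh7 (chromosome 17, 56997339 to 56999322) and Alkbh8 (chromosome 9, 3335140 to 3391154). On the minus strand lie Alkbh1 (chromosome 12, 87425840 to 87444017), Alkbh2 (chromosome 5, 114123926 to 114128218) and Alkbh3 (chromosome 2, 93980550 to 94010807). Values are per gene, so isoforms are not told apart.

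Levels of different genes were compared in RPKM, deposited by the authors and corrected for gene length as well as depth. Its implied read total per summed count was 1.20 in the FTO control and 1.19 in its knockdown, against 1 in METTL3 control replicate 1. Beside the METTL3 libraries, the FTO libraries therefore read lower in RPKM than in CPM. Alkbh5, the nuclear m6A demethylase, had the highest median over the 6 libraries, 14.8 RPKM (range 13.6 to 16.2). Alkbh3, which repairs methylated bases in single-stranded DNA and RNA, followed at 13.3 RPKM (7.06 to 15.0). Alkbh7, a mitochondrial protein linked to programmed necrosis and fat metabolism in mice, stood at 11.3 RPKM (3.52 to 13.5). These were the only members with a median above that of Fto.

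Fto itself had 10.4 and 10.2 RPKM in the METTL3 controls, 10.2 and 9.53 in the METTL3 knockdowns, 9.01 in the FTO control and 2.95 in its knockdown. Without the last library its level lay within 9.01 to 10.4 RPKM, and its place in the family was the fourth in each METTL3 library, the second in the FTO control and the sixth in the FTO knockdown. Alkbh4, which acts on methylated actin, had a median of 6.12 RPKM (2.37 to 7.40), and Alkbh6, whose substrate is poorly known, 6.07 RPKM (1.77 to 6.45). The lowest medians were those of Alkbh8, which completes wobble uridine modification in tRNA, at 3.51 RPKM (2.88 to 5.51), of Alkbh1, a demethylase of tRNA and a mitochondrial tRNA modifier, at 3.20 RPKM (2.39 to 4.23), and of Alkbh2, which repairs methylated bases in double-stranded DNA, at 2.89 RPKM (1.13 to 3.85).

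The order of the lowest 3 rests on the gene lengths behind the deposited RPKM. The length it implies, relative to that of Fto, was 0.275 for Alkbh8 and 0.379 for Alkbh1, against 0.671 and 0.504 for the exons annotated in GENCODE release 21. On annotated lengths their medians would be 1.44 and 2.41 RPKM, below Alkbh2 at 2.89. The level of Alkbh2 is itself uncertain, because 29.5% of its exons overlap Usp30 on the opposite strand.

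No neighbours in this order differed beyond their spread over all 6 libraries. Within the 4 METTL3 libraries, the values fell in 4 tiers that did not overlap. Alkbh5, Alkbh3 and Alkbh7 lay at 11.0 RPKM or more. Fto lay just below them, between 9.53 and 10.4 RPKM. Alkbh4 and Alkbh6 spanned 5.72 to 7.40 RPKM, and Alkbh8, Alkbh1 and Alkbh2 spanned 2.74 to 4.23 RPKM. In the FTO control the order was another one, with Alkbh5 at 14.1, Fto at 9.01, Alkbh3 at 7.06 and Alkbh8 at 5.09 RPKM as its first members.

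**Figure D1:**
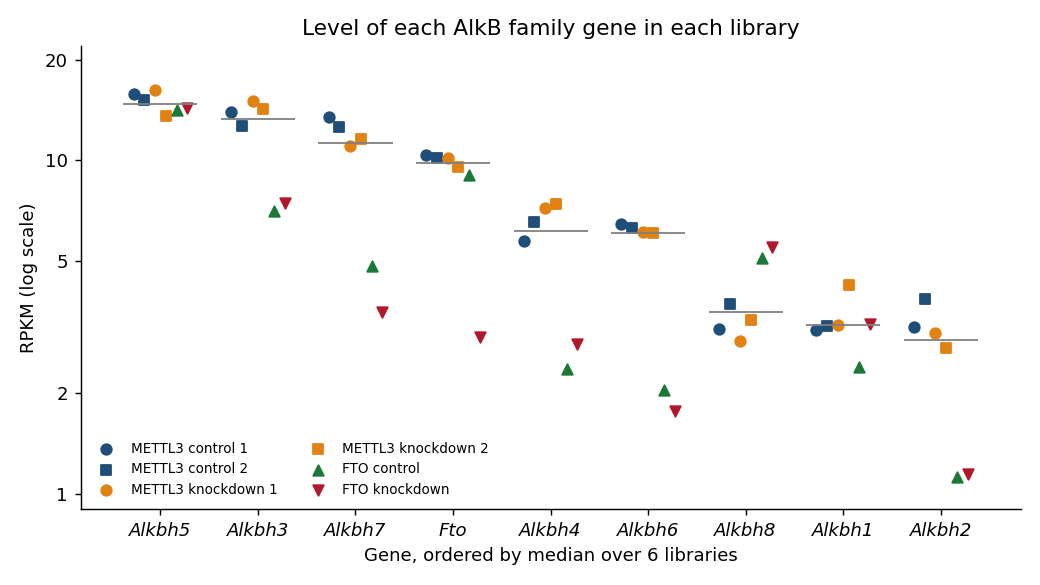
RPKM on a log scale (vertical) of the 9 genes (horizontal, ordered by median) in each of the 6 libraries, with a grey line at the median. Fto stands at 9.01 to 10.4 in 5 libraries and at 2.95 in the FTO knockdown, and Alkbh5 stands at 13.6 to 16.2 in all 6.

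The balance between both m6A erasers was alike in 5 libraries and differed in the FTO knockdown. The ratio of Alkbh5 to Fto in RPKM was 1.53 and 1.49 in the METTL3 controls, 1.60 and 1.43 in the METTL3 knockdowns, 1.57 in the FTO control but 4.86 in its knockdown. The share of Fto in the summed RPKM of the family was 13.1% to 13.8% in the METTL3 libraries, 18.8% in the FTO control and 6.91% in its knockdown. The sum of the 8 other genes was 39.0 RPKM in the FTO control and 39.8 in its knockdown, so the family total went from 48.0 to 42.7 RPKM.

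In the FTO comparison Fto was the one family member past 1.5-fold. It had 4484 reads in the control and 1413 in the knockdown, or 155 CPM (95% Poisson interval 150.5 to 159.6) and 49.2 CPM (46.7 to 51.8). The knockdown library thus kept 0.317 of the control level, with an exact binomial interval of the ratio from 0.299 to 0.337. The log2 ratio with a pseudocount of 1 CPM was -1.64, and Fto had the 30th lowest ratio of the 11432 genes that reached 50 reads in 1 or both libraries. With 1 library per group there is no test between the conditions, and in bulk RNA fewer cells of a type and less RNA per cell cannot be told apart. Summed fibroblast and pre-adipocyte markers, all 8 of them detected, were also lower in the knockdown library (7931 against 11790 CPM), and their part in the ratios was not tested. These intervals reflect counting error alone, and they understate it if each end of a pair was counted on its own.

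Alkbh1 to Alkbh8 did not pass 1.5-fold in either direction. Across the transcriptome 9.18% of genes passed 1.5-fold and 2.16% passed 2-fold. Alkbh2, with 48 and 47 reads, fell under the minimum of 50 reads, so 8 members were set against this background. The counting interval of the ratio excluded 1 for 3 of the 8, namely Fto, Alkbh1 and Alkbh7, against 61.7% of all genes.

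Alkbh5 was nearly level between both libraries, with 3231 reads in the control and 3158 in the knockdown, 112 and 110 CPM. Its ratio was 0.984 (0.937 to 1.03), so the counting interval held changes of at most a few percent. Alkbh3 had 852 and 862 reads, a ratio of 1.02 (0.926 to 1.12). Its values were 29.4 CPM in the control and 30.0 CPM in the knockdown.

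Alkbh1 showed the highest ratio of the paralogs, 1.31 (1.15 to 1.48), from 452 reads in the control to 586 in the knockdown, or 15.6 to 20.4 CPM. The log2 ratio of 0.36 was about the size of the largest gap between METTL3 replicates for the same gene, 0.35. Slirp, an RNA-binding protein gene on the opposite strand, shares 122 bp or 1.86% of the annotated Alkbh1 exons and had 206 reads in the control and 298 in the knockdown. Its part in the Alkbh1 ratio was not tested.

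Alkbh7 showed the lowest ratio after Fto, 0.709 (0.563 to 0.889), from 189 to 133 reads, or 6.53 to 4.63 CPM. Its log2 ratio of -0.42 was larger in size than its largest METTL3 replicate gap of 0.10. That gap came from single-read libraries with 517 to 651 Alkbh7 reads, more than in the FTO pair, so it may understate the spread there. The other paralogs had intervals that included 1. Their ratios were 0.834 (0.689 to 1.01) for Alkbh6, 0.986 (0.645 to 1.51) for Alkbh2, 1.05 (0.944 to 1.17) for Alkbh8 and 1.15 (0.942 to 1.40) for Alkbh4. Alkbh6 and Alkbh4, unlike Alkbh2 and Alkbh8, had log2 ratios (-0.23 and 0.18) larger in size than their METTL3 replicate gaps (0.06 and 0.16).

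A fit of all 6 libraries in 4 groups, in which the FTO libraries were assumed to vary like the METTL3 replicates, gave Fto a log2 fold change of -1.65 (SE 0.15). Its edgeR p was 3.67e-05, the second lowest of 15478 genes, and its adjusted p was 0.274. For Alkbh7 the same fit gave -0.49 with an edgeR unadjusted p of 0.0592 and an edgeR adjusted p = 0.639, and for Alkbh1 0.39 with an edgeR adjusted p = 0.721. No gene in this fit passed an adjusted p of 0.05, a share of 0%, and 7.82% had an unadjusted p under 0.05. Fto was the one family member among these.

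**Figure D2:**
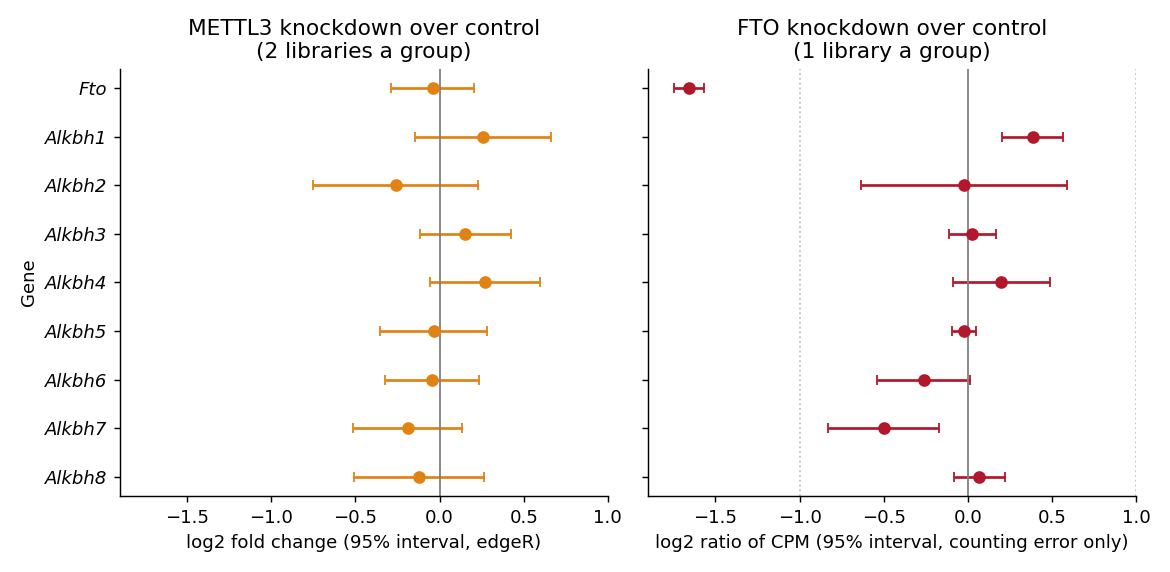
Change of the 9 genes (vertical) in the METTL3 comparison (left, log2 fold change with its edgeR 95% interval) and in the FTO comparison (right, log2 ratio of CPM without a pseudocount, with its counting interval; dotted lines mark 2-fold). All METTL3 intervals include 0, and on the right Fto alone lies beyond 2-fold.

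In the METTL3 comparison none of the 9 genes passed the test, edgeR's two-sided quasi-likelihood test with Benjamini-Hochberg adjustment over all genes. That test had no replicate block. With a block, for which the labels give no pairing, Alkbh1 and Alkbh4 were called, as were 27.1% of all genes. The targeted gene had 25.1 and 28.9 CPM in the controls and 7.68 and 6.55 CPM in the knockdowns. Both knockdown libraries were far below both controls, a log2 fold change of -1.92 (SE 0.16) with an edgeR adjusted p = 0.161. The unadjusted p of 3.53e-05 was the third lowest of 13697 genes, yet only 2 genes, or 0.0146%, passed an adjusted p of 0.05, and neither is a family member. The test called 70 genes when METTL3 knockdown replicate 1 was left out and 7 when METTL3 knockdown replicate 2 was, and no member was called in either case. Over the alternatives the adjusted p of Mettl3 ran from 1.59e-29 to 0.318. No member had an unadjusted p under 0.05, against 11.5% of all genes. Exact permutation of 2 against 2 libraries cannot give a p below 0.333 for a single gene.

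Fto had 146 and 142 CPM in the METTL3 controls and 146 and 134 CPM in the METTL3 knockdowns. The groups overlapped, and the log2 fold change was -0.04 with a 95% interval from -0.29 to 0.20 and an edgeR adjusted p of 0.908. Alkbh5 had 103 and 97.4 CPM in the controls and 107 and 88.1 CPM in the knockdowns. These groups overlapped as well, with a log2 fold change of -0.04 (interval -0.35 to 0.28) and an edgeR adjusted p of 0.943. The sign of both erasers turned in a leave-one-out fit. The log2 fold change of Fto was 0.01 without METTL3 knockdown replicate 2, and that of Alkbh5 was 0.09 without the same library and 0.00226 without METTL3 control replicate 1.

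Among the DNA and RNA repair enzymes, Alkbh3 had 47.9 and 42.9 CPM in the controls and 52.3 and 48.8 CPM in the knockdowns. The knockdowns lay just above the controls, at a log2 fold change of 0.15 (interval -0.12 to 0.42, edgeR adjusted p = 0.653). Its exons share 85 bp with the antisense transcript Alkbh3os1, which had 13 to 24 reads per library. Alkbh2 had 3.83 and 4.60 CPM in the controls and 3.73 and 3.31 CPM in the knockdowns. Both knockdowns were below both controls, at -0.26 (interval -0.75 to 0.23, edgeR adjusted p = 0.672). Leaving out METTL3 control replicate 2 gave -0.13 for Alkbh2 and 0.07 for Alkbh3, and leaving out METTL3 control replicate 1 gave -0.39 and 0.23. Alkbh2 reads are uncertain, because 329 bp, or 29.5% of its exons, overlap Usp30 on the opposite strand. Usp30 had 1062 to 2775 reads per library, the library kit does not mark strand, and reads in the overlap cannot be told apart.

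Of the tRNA enzymes, Alkbh1 had 16.6 and 16.9 CPM in the METTL3 controls and 17.5 and 22.6 CPM in the knockdowns. Both knockdowns were above the controls, but only knockdown replicate 2 stood well apart, and the log2 fold change was 0.26 (interval -0.15 to 0.66, edgeR adjusted p = 0.601). The value dropped to 0.06 when METTL3 knockdown replicate 2 was left out, and was 0.43 when METTL3 knockdown replicate 1 was. Alkbh8 had 12.2 and 14.2 CPM in the controls and 11.4 and 12.8 CPM in the knockdowns, with overlap, and a log2 fold change of -0.12 (edgeR adjusted p = 0.809). Its fold change depended on single libraries, at -0.23 when METTL3 control replicate 1 was left out and -0.0095 when METTL3 control replicate 2 was.

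Alkbh4 had 13.1 and 14.8 CPM in the METTL3 controls and 16.8 and 17.0 CPM in the knockdowns. The knockdowns agreed closely and lay above both controls, at 0.27 (interval -0.06 to 0.60), with the lowest unadjusted p in the family, 0.0902, and an edgeR adjusted p of 0.513. Alkbh7 had 15.0 and 13.9 CPM in the controls and 12.5 and 12.9 CPM in the knockdowns. It was lower in both knockdowns, at -0.19 (interval -0.51 to 0.13, edgeR adjusted p = 0.638). Alkbh6 stayed between 20.5 and 21.9 CPM in all 4 libraries, at -0.05 (edgeR adjusted p = 0.910).

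The groups did not overlap for 5 of the 9 genes, 3 with knockdowns above (Alkbh1, Alkbh3, Alkbh4) and 2 with knockdowns below (Alkbh2, Alkbh7). Over all genes tested 43% did not overlap, so the count for the family is near the background. The median log2 fold change of the 9 genes was -0.04, beside 0.00 over all genes.

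Paralog levels also differed between the experiments, as the levels of most genes did. On CPM scaled over all 6 libraries, the FTO libraries did not overlap the METTL3 libraries for 7 of the 9 genes. Over all genes 74.9% did not overlap, so the count for the family is near the background. Both FTO libraries were below all METTL3 libraries for Alkbh2, Alkbh3, Alkbh4, Alkbh6 and Alkbh7. For these the log2 ratio of FTO control to the mean METTL3 control, with a pseudocount of 1 CPM, was -0.97, -0.61, -0.97, -1.24 and -1.04. Both FTO libraries were above for Alkbh8, at 0.82, and for Alkbh5, at 0.16. In the deposited RPKM, Alkbh5 had 14.1 and 14.3 in the FTO libraries, within its METTL3 range of 13.6 to 16.2. Fto at 0.11 and Alkbh1 at -0.09 overlapped.

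Sequencing mode and experiment cannot be told apart in these differences. The same contrast moved with GC content of the transcript over all genes. Its median was 0.50 for transcripts under 45% GC, 0.13 from 45% to 50%, -0.18 from 50% to 55% and -0.54 from 55% upwards. Alkbh8, the member with the lowest GC content at 40.2%, was the one most above, and Alkbh2, Alkbh4 and Alkbh7, at 59.2%, 56.7% and 55.7%, were among those below. Set against genes in the same bin of 2 percentage points of GC, Alkbh3, Alkbh4, Alkbh6 and Alkbh7 lay below quartile 1, and the other 5 lay within the quartiles. Alkbh6, at 50.1% GC, lay 1.24 below 0 where quartile 1 of its bin was -0.50. For Alkbh3 at 51.8% quartile 1 was also -0.50, for Alkbh7 it was -0.79 and for Alkbh4 -0.95. The part of GC content in the levels of the members was not tested.

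**Figure D3:**
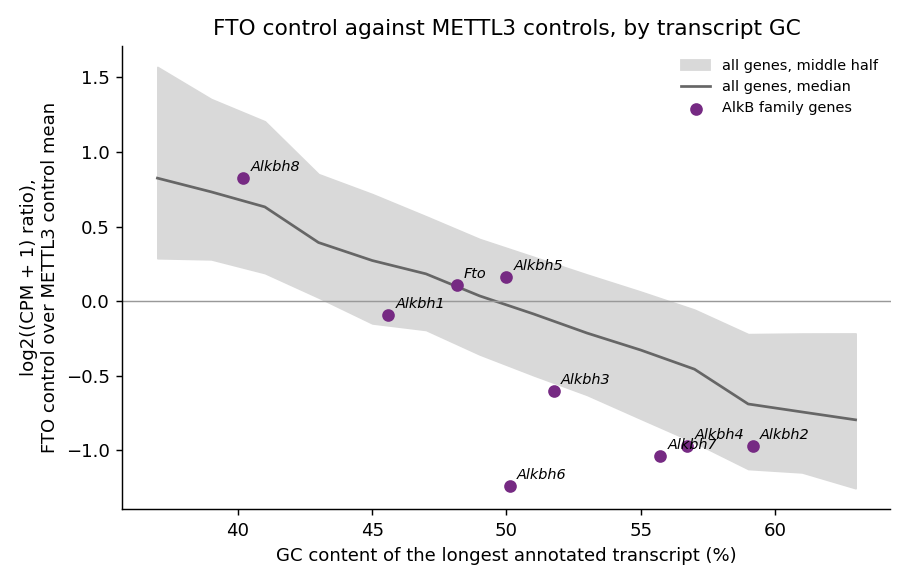
Log2 ratio of FTO control to the mean METTL3 control (vertical, CPM with a pseudocount of 1) against GC content of the longest transcript (horizontal, percent), with the median and the middle of the distribution (quartile 1 to quartile 3) of all genes in bins of 2 percentage points holding at least 100 genes, and the 9 members as points. Alkbh8 lies at 0.82 and 40.2% GC, and Alkbh6 at -1.24 and 50.1% GC. Alkbh3, Alkbh4, Alkbh6 and Alkbh7 lie under the band.

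Fto lies head to head with Rpgrip1l, a ciliary gene on the minus strand whose RefSeq start is 303 bp away. Rpgrip1l had 789 reads in the FTO control and 607 in its knockdown, 27.3 and 21.1 CPM, a ratio of 0.775 (0.696 to 0.862). It was thus lower in the same library as Fto, by less. In the METTL3 comparison it had 16.3 and 16.4 CPM in the controls and 18.8 and 16.3 CPM in the knockdowns, and the log2 fold change was 0.10 (edgeR adjusted p = 0.819). Without METTL3 knockdown replicate 1 it was -0.01.

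The other neighbours with at least 50 reads in 1 library or both kept a larger share of their control level than Fto did. Of 8 neighbours with enough reads, 6 had a ratio below 1 in the FTO comparison, and 5973 of all 11432 genes did. The median log2 ratio was -0.22, beside -0.01 for all genes. These counts were not tested. Mmp2, a matrix protease gene, was past 1.5-fold at 0.635 (0.608 to 0.664), with 5079 and 3205 reads. Its METTL3 replicates were far apart as well, with 768 and 441 CPM in the controls and 893 and 548 CPM in the knockdowns. None of the 8 was past 2-fold. Lpcat2, a lipid acyltransferase gene under the minimum of 50 reads, had 33 reads in the control and 4 in the knockdown, a ratio of 0.122 (0.0314 to 0.343), and is named after its values were seen. In the METTL3 comparison none of 9 was called. Rbl2, a pocket protein gene, had a log2 fold change of -0.29 and Irx5, a homeobox gene, one of -0.34, with edgeR adjusted p-values of 0.393 and 0.399.

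**Figure D4:**
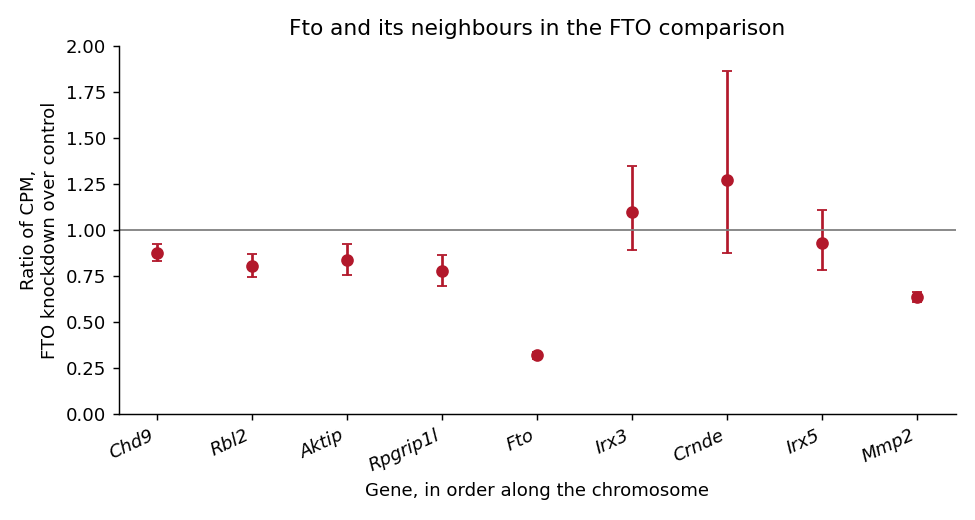
Ratio of CPM in the FTO knockdown to the FTO control (vertical, bars are 95% counting intervals) for Fto and 8 neighbours in chromosomal order (horizontal). Fto stands at 0.317, Mmp2 at 0.635 and Rpgrip1l at 0.775.

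The profiles most like that of Fto over the 6 libraries were taken from 10206 genes, by the distance between centred log2(CPM + 1) values. The nearest was Sparcl1, an extracellular matrix glycoprotein gene, at a distance of 0.317. It had 75.9 and 65.6 CPM in the METTL3 controls, 67.0 and 52.8 in the METTL3 knockdowns, 78.2 in the FTO control and 24.7 in its knockdown. Kctd7 at 0.480, Igf1 at 0.496, Fam114a1 at 0.529 and Bnc2 at 0.544 came next. All 5 were lowest in the FTO knockdown, which follows from choosing them by likeness to Fto. The genes nearest to Alkbh5, whose profile was nearly flat, were Epb41l4a at 0.0898, Chd6 at 0.0914 and Commd6 at 0.0994.

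The wider class of 2-oxoglutarate dioxygenases, which share the cofactors of the family, had no member called among 49 tested in the METTL3 comparison. Of these, 5 had an unadjusted p under 0.05 with a higher and 5 with a lower level, against 870 higher and 699 lower of all 13697 genes, and the median log2 fold change was -0.01. Plod2, a collagen lysyl hydroxylase, had 8.29 and 8.52 CPM in the controls and 17.0 and 15.5 CPM in the knockdowns, a log2 fold change of 0.95 with an edgeR adjusted p of 0.209. Egln1, the main oxygen-sensing prolyl hydroxylase, had 61.1 and 60.5 CPM in the controls and 83.1 and 87.5 CPM in the knockdowns, 0.49 with an edgeR adjusted p of 0.246. Both pass with DESeq2, at adjusted p = 0.000242 and 0.0455, while over the alternatives the adjusted p ran from 3.83e-12 to 0.758 for Plod2 and from 3.09e-09 to 0.910 for Egln1. In the FTO comparison 1 of 47 was past 1.5-fold up and 2 down, against 387 up and 663 down of all 11432 genes. Hr, a histone demethylase gene, had a ratio of 1.63 and Tet1, a DNA methylcytosine dioxygenase, one of 0.599.

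Among enzymes that supply or use 2-oxoglutarate, none of 25 was called in the METTL3 comparison and none of 24 was past 1.5-fold in the FTO comparison. Gpt2, a mitochondrial alanine aminotransferase, had a METTL3 log2 fold change of 0.47 (edgeR adjusted p = 0.296), and Ogdh, which consumes 2-oxoglutarate in the citric acid cycle, one of -0.28 (edgeR adjusted p = 0.388). Psat1, a serine synthesis enzyme, had an FTO ratio of 1.39 and Bcat2, a branched-chain aminotransferase, one of 0.716.

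Of 16 genes that act beside ALKBH2 and ALKBH3 in the repair of alkylation damage, none was called in the METTL3 comparison. The lowest p-values were those of Polb, the base excision repair polymerase, at -0.30, and of Trip4, a subunit of the complex that works with ALKBH3, at -0.23, with edgeR adjusted p-values of 0.436 and 0.494. In the FTO comparison Mgmt, which removes alkyl groups from guanine, was past 1.5-fold at 0.649 (0.570 to 0.738), with 613 and 395 reads. Otud4, a deubiquitinase that supports ALKBH2 and ALKBH3, had a ratio of 1.37.

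Of the tRNA modification enzymes that work with ALKBH1 or ALKBH8, or write their substrates, none of 20 was called in the METTL3 comparison. A log2 fold change above 0 was seen for 17 of the 20 and for 6913 of all 13697 genes, with medians of 0.10 and 0.00. Ftsj1, a tRNA ribose methyltransferase, stood at 0.55 (edgeR adjusted p = 0.284), and Trmt61a, the catalytic subunit that makes 1-methyladenosine in tRNA, at 0.58 (edgeR adjusted p = 0.350). In the FTO comparison 13 of 19 had a ratio above 1, and 5459 of all 11432 genes did, with median log2 ratios of 0.14 and -0.01. These counts are descriptions with no test. Trmt10c, a subunit of mitochondrial RNase P, was past 1.5-fold at 1.57 (1.42 to 1.73), and Trmt61a stood at 1.42.

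Of 12 writers of m6A and of its cap-adjacent form m6Am, none was called by the edgeR test described above in the METTL3 comparison. Mettl3 itself was called by DESeq2 (adjusted p = 4.32e-18). It was also called by edgeR with no filter on low counts (adjusted p = 0.000747) and by edgeR with a replicate block (adjusted p = 1.59e-29). After Mettl3 the lowest p-value was that of Wtap, the adaptor of the writer complex, at 0.26 (edgeR adjusted p = 0.480). None was past 1.5-fold in the FTO comparison. The median log2 ratio was 0.19. Mettl3 had 439 reads in the FTO control and 510 in its knockdown, a ratio of 1.17 (1.03 to 1.33). Mettl4, a methyltransferase of small nuclear RNA, had 1.23 and Rbm15, which recruits the writer complex, 1.20. Reads of Mettl3 are uncertain where 933 bp of its exons overlap Tox4.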

How the data were processed

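Each of the 6 libraries had a deposited table in which the authors list, per the file headers, reads (a count) and RPKM by Ensembl gene. Counts were whole numbers, not normalised. RPKM was computed by the authors, and its implied read total per summed count, set to 1 in METTL3 control replicate 1, was 1.20 in the FTO control and 1.19 in its knockdown. The submitters' processing notes name TopHat2 2.0.9, bedtools and mm10. How strand, multiply matching reads and read pairs were handled is not given in the sources used. Identifiers were matched to GENCODE mouse release 21 (GRCm38), for 35449 of 37315 entries. Of these, 3 that repeated a symbol stayed in under their Ensembl identifier.

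The METTL3 test ran edgeR 4.0.16 under R 4.3.3 on raw counts of those 4 libraries (TMM, filterByExpr, robust glmQLFit and glmQLFTest, no block, Benjamini-Hochberg). All 9 members passed the filter. The SE is derived from the test statistic. For the FTO pair, folds are ratios of TMM-scaled CPM, with a pseudocount of 1 CPM on the log2 scale, for genes that reached 50 reads in 1 or both libraries. Alternatives used DESeq2 1.42.0, limma 3.58.1, other scalings, filters and pseudocounts, a replicate block, left-out libraries and a fit of 4 groups. The fits were tested on simulated data. A count of 0 allows up to 3 reads, 0.0673 to 0.106 CPM of library totals.

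Named genes were the 9 members, Mettl3, Rpgrip1l, the 5 genes most like Fto and 3 most like Alkbh5, and of each list any called gene, otherwise the 2 with the smallest METTL3 p and the 2 with the largest FTO log2 ratio in size. Lpcat2 was added after its values were seen. Members and lists were chosen with earlier results of these data known, and the GC classes after the levels were seen. In the list of dioxygenases Tmlhe and Jmjd7 were not matched.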

Additional observations from a re-analysis of the deposited data

How the results depend on the processing

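No Alkbh paralog passed 1.5-fold or 2-fold in the FTO comparison under any alternative run, and no member was called in the METTL3 comparison under any but 1. That exception was the replicate block, under which 3706 of 13697 genes were called, or 27.1%. Among them were 2 of the 9 members, a count near that share. Alkbh4 had an edgeR adjusted p of 0.0313 and Alkbh1 one of 0.0400. Over the alternatives that kept all libraries, the adjusted p ran from 0.0313 to 0.786 for Alkbh4 and from 0.0400 to 0.880 for Alkbh1. The labels do not pair the libraries. Differences between replicates 2 and 1 correlated at 0.587 over genes between controls and knockdowns, with only 2 pairs. The METTL3 count of 2 genes became 111 with no filter on low counts and 222 with DESeq2, and ran from 2 to 70 when 1 library was left out. Where a library was left out, the log2 fold change ran from -0.103 to 0.0112 for Fto, from -0.185 to 0.0938 for Alkbh5 and from -0.0065 to 0.197 for Rpgrip1l. The FTO log2 ratio of Fto was -1.34 on RPKM with a pseudocount of 1 RPKM, which weighs more at its levels than 1 CPM. Genes past 2-fold numbered 247, and 860 with a minimum of 10 reads, 123 with 200 reads and 1305 in the fit of 4 groups. Those past 1.5-fold numbered 1050, and 2259, 668 and 3004 likewise. From control libraries only, 5 of 9 members kept their place in the order of levels. Depth limits Alkbh2 most, at 47 and 48 reads in the FTO libraries. The causes of these shifts were not tested.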
